A study of Drosophila melanogaster with 13 samples.

Results

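Cytosolic ribosomal protein genes were taken here as every counted Drosophila melanogaster gene whose FlyBase symbol starts with RpL or RpS followed by a digit, or with RpLP. The rule found 87 genes among 17370 counted genes, 51 for the large (60S) subunit and 36 for the small (40S) subunit. Of these, 13 lie on the X chromosome (6 large, 7 small) and 74 on the autosomes, with 18 on arm 2L, 19 on 2R, 13 on 3L, 23 on 3R and 1 on chromosome 4. Another 5 symbols that meet the rule, RpS10b, RpL27A, RpL31, RpL19 and RpS12, had no matching identifier and were not analysed here.

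The counts come from poly(A) RNA of adult heads, in pools of 70 to 80 heads taken 2 to 6 h after flies left the pupal case. Larvae had grown on LPS food, low in protein and high in sugar with a protein to carbohydrate ratio of 0.1, or on HPS food, high in protein and low in sugar with a ratio of 0.43. Males and females of 3 isofemale lines, SD6, SD3 and SD2, were sampled on each diet, with 1 pool for each combination of diet, sex and line. This gives 12 RNA samples in 13 libraries, because RNA from SD2 males on LPS food was made into 2 libraries, which were added together. An isofemale line descends from a single wild-caught female, so each line stands for 1 founder and no group carries a transgene or an introduced mutation. In bulk heads, fewer cells of a type and less RNA per cell cannot be told apart.

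A ribosome joins a small subunit, which reads the messenger RNA, to a large subunit, which makes the peptide bond. Its proteins are needed in nearly equal numbers, and their genes are among the most strongly expressed in growing cells. In flies the messengers of these proteins start with a run of pyrimidines, and TOR signalling, which responds to amino acids, sets how well they are translated. Most of the proteins have 1 gene, loss of a copy of which gives the slow-growing, thin-bristled Minute flies, while a few have a second gene that works mainly in the germ line.

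Libraries held between 7.84 M and 25.3 M reads in genes, with 27.5 M in male LPS SD2 once its 2 libraries were summed. The library labelled male LPS SD3 and the library labelled male LPS SD6 went against their line labels. Their deviations from the group mean gave r = −0.375 to −0.261 with their own labelled line and r = 0.649 to 0.766 with the line named on the other, while same-line pairs elsewhere gave 0.621 to 0.807. RpL40 shows this among the ribosomal protein genes. The library labelled male LPS SD3 held 772 counts per M gene reads (CPM) of it, and the library labelled male LPS SD6 held 594 CPM. The other SD6 samples held 727 to 776 CPM of it and the other SD3 samples 619 to 636 CPM. Tests therefore use the remaining 10 samples, with all 12 as labelled beside them. The second male LPS SD2 library and the male HPS SD2 library form a smaller sequencing run. The male HPS SD2 sample was sequenced in that run only, so its values cannot be told apart from the run.

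Of the 87 genes, 76 averaged over 100 CPM, which is 87.4% of them against 12.4% of all counted genes. The messengers are short: the median transcript of the 78 genes above 5 CPM was 858 bases (range 288 to 3835), against 1948 bases over the 10225 tested genes with a known length. Together the 87 genes took 4.4% to 5.58% of all gene reads. Levels per kb of transcript were close to each other, with 72 genes at 300 CPM per kb or more and a median of 702 for the 47 expressed large subunit genes and 750 for the 31 expressed small subunit genes. Levels per kb of short transcripts also depend on how the library protocol handles short RNA, which was not tested.

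Highest per kb was RpL41, which encodes the smallest large subunit protein, at 2607 ± 413 CPM per kb (SD, n = 12). RpS27A, whose product is made as a fusion to ubiquitin, followed at 1563 ± 130, RpL39 at 1466 ± 260, RpL21 at 1287 ± 98.1 and RpS15 at 1254 ± 128 CPM per kb. RpL41 and RpL39 also have the shortest transcripts of the expressed genes, of 320 and 288 bases. The lowest of the expressed genes were RpS15Ab at 22.2 ± 5.68 CPM per kb, RpLP0-like at 23.7 ± 3.29, RpL24-like at 150 ± 25.3, RpL34a at 164 ± 13.1 and RpL22 at 181 ± 35.6. RpL24-like and RpLP0-like are named for their likeness to ribosomal proteins, and their yeast relatives act in assembly of the large subunit in the nucleolus. The other ubiquitin fusion, RpL40, stood at 1020 ± 110 CPM per kb. Exons of RpL22, RpS27A, RpL23A and RpS6 overlap those of lncRNA:CR42491, Ip259, Uhg7 and CR33222, in the same order, on the same strand. Reads shared there are not counted, so these levels may be too low.

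**Figure D1:**
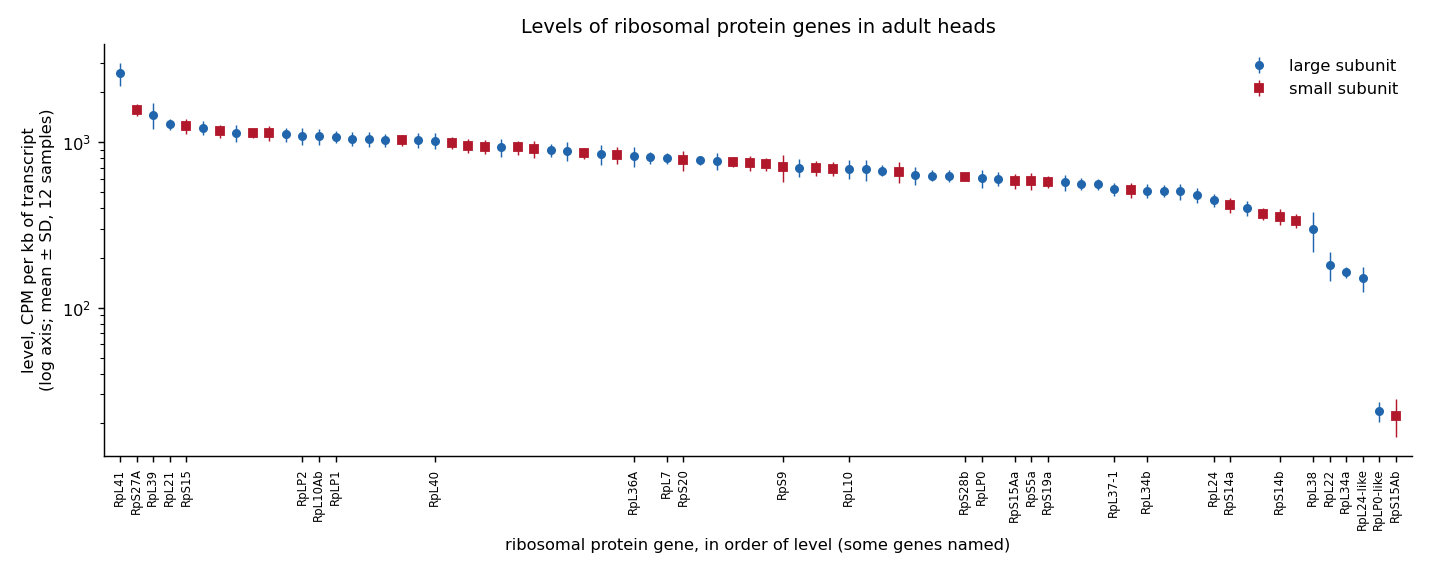
Level of the 78 ribosomal protein genes above 5 CPM, in CPM per kb of transcript on a log axis, as mean ± SD over 12 samples, with blue circles for large and red squares for small subunit genes, and names under the highest, the lowest and some of the genes described in the text. Most genes lie within a narrow band, RpL41 stands above it at 2607, and RpLP0-like and RpS15Ab lie far below it at 23.7 and 22.2.

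The stalk of the large subunit, where elongation factors dock, is built on RpLP0 with the acidic proteins RpLP1 and RpLP2. RpLP0 was counted at 603 ± 71.8 CPM per kb, near the median of the large subunit genes. RpLP1 stood at 1079 ± 89.4 and RpLP2 at 1087 ± 129 CPM per kb, above most of the other genes.

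Among the genes with a second copy, heads used mainly 1 copy in most groups. RpS5a, RpS19a, RpS28b, RpL37-1, RpL22, RpL7 and RpL10Ab each held over 99% of the reads of their group in every sample. Their partners were close to silent. RpS5b, a gene known for the ovary, had 67 reads in all 12 samples together, RpS19b 22, RpL22-like, known for the testis, 8, RpL37-2 5 and RpS28-like 3. RpS10a, whose partner RpS10b was not analysed, had 40. No read was counted for RpL7-like, RpL10Aa or RpS28a, where the detection limit of 3 reads is 0.109 to 0.382 CPM unscaled across the samples. Such limits cover counting error only, and exons of RpL7-like and RpS28-like overlap those of CG34164 and CG3769 on the same strand, where shared reads are not counted.

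The heads held little other sign of germ cells. Of 6 germ line markers with a count row, only orb passed 5 CPM (12.9 to 21.3 CPM), vas lay between 0.693 and 2.12 CPM, and osk and bam were at or near 0. The 6 testis markers summed to 1.71 to 3.42 CPM and the 3 follicle cell markers to 0.360 to 1.41 CPM. The photoreceptor opsin ninaE, at 18322 to 28098 CPM, and the neuronal gene elav, at 76.6 to 128 CPM, were present in every sample of these heads.

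In 5 groups both genes were expressed. RpS14a and RpS14b, neighbours on the X with near-identical coding sequence, were both high, with 58.2% to 65.8% of the reads of the pair on RpS14a. Since only uniquely mapped reads were counted, reads that fit both were left out and this split is uncertain. RpL34b held 77.8% to 80.6% of its pair and RpL34a the rest. RpL24 held 79.7% to 85.1% beside RpL24-like, RpS15Aa 95.8% to 97.9% beside RpS15Ab, and RpLP0 96.7% to 98.0% beside RpLP0-like. RpL24-like and RpLP0-like are grouped here by name, and whether they stand in for RpL24 and RpLP0 was not tested. In the genome annotation 26 of the 87 genes also hold 71 genes for small nucleolar RNAs, with 14 inside RpS5a. The RNAs that these encode guide the chemical marking of ribosomal RNA.

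Most of the variation between samples was shared by the genes. Over 12 samples the median SD of a gene's log2 CPM was 0.151, and 0.097 once each sample's median deviation was taken out. Other tested genes had a median SD of 0.223, and the 177 of them within the middle range of the ribosomal protein levels had 0.204. Summed over the 87 genes, female HPS SD6 was highest (56055 CPM). Lowest were the library labelled male LPS SD6 (44864 CPM) and male HPS SD2 (45639 CPM). The lowest value fell in one or the other of these for most of the 78 genes above 5 CPM, 37 in the first and 29 in male HPS SD2.

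The subunits kept their proportion: the large subunit sum was 1.46 to 1.55 times the small subunit sum in the 12 samples. The 2 libraries of the same male LPS SD2 RNA, 1 from each sequencing run, also differed across most of the genes. Of 78 genes, 62 were lower in the second library, with a median log2 difference of −0.11 and an SD of 0.15. That difference is as large as the median sex difference given below. It comes from 1 pair of libraries across runs, so how much of the shared movement is technical was not tested.

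**Figure D2:**
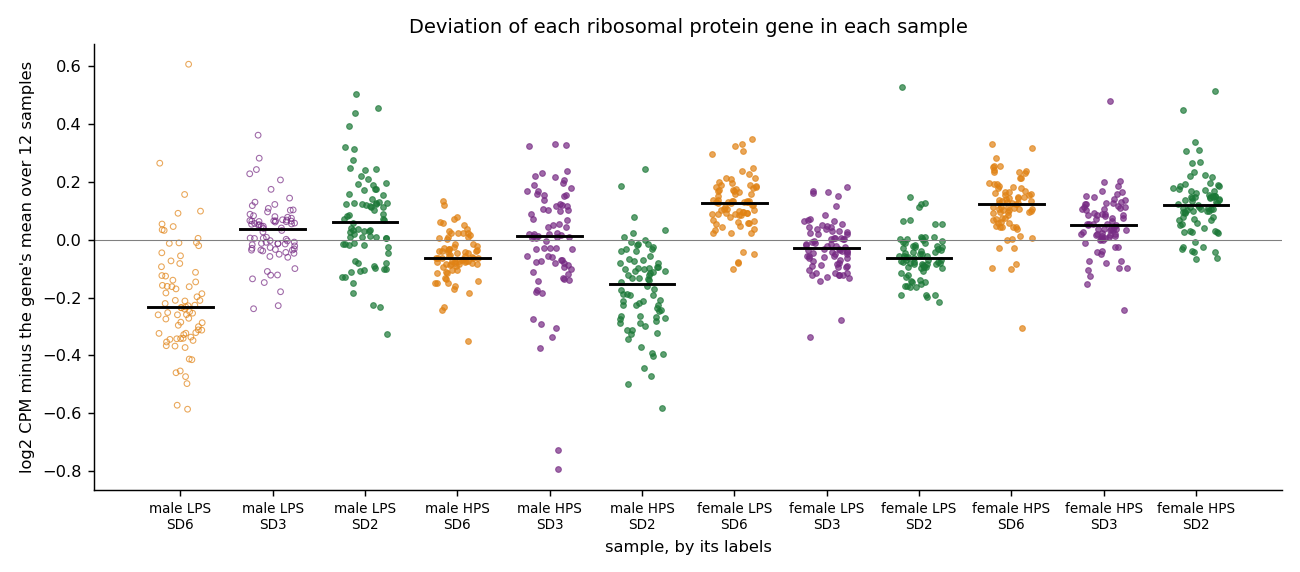
Log2 CPM of each of 78 ribosomal protein genes minus its mean over 12 samples, by sample, with points coloured by labelled line (orange SD6, purple SD3, green SD2), open for the 2 libraries that go against their labels, and black bars at the medians. The medians run from −0.23 in the library labelled male LPS SD6 to 0.13 in female LPS SD6, and whole samples move together.

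A few genes departed from this common movement. RpL38, a large subunit gene on arm 2R, was the most variable, with 177 CPM in male HPS SD3 at the low end. At the high end, the library labelled male LPS SD6 had 445 CPM. Its 2 libraries of the same RNA also differed, at 495 CPM in the second and 337 CPM in the first. RpL38 passed in no comparison. RpS15Ab ranged from 9.0 CPM in male HPS SD3 to 22.5 CPM in female LPS SD2, and RpL24-like, RpL22, RpL39 and RpS9 came next by their spread around the common movement.

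Larval diet moved no ribosomal protein gene past the threshold, an adjusted p of 0.05. Of 79 genes tested with edgeR's quasi-likelihood test, 0 were called, against 1.42% of all 10373 genes, and DESeq2 also called 0. LPS heads were higher for 38 genes and lower for 41, with a median log2 fold change of −0.0044, against 0.0047 over all genes. At an unadjusted p under 0.05 there was 1 gene, RpL41. The 95% interval of the diet difference lay within 0.5 log2 units of 0 for 78 of the 79 genes (98.7%), against 76.2% of all genes. The 1 gene outside was RpS5b, with too few reads for a narrow interval. The shares were not matched for read level, on which interval width depends. In all 12 samples as labelled, 0 of 78 genes were called, against 0.0997% of all genes.

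RpL41 had 929 CPM in male SD2, 899 in female SD2, 926 in female SD3 and 1036 in female SD6 on LPS food, against a range of 583 to 938 CPM with a median of 788 on HPS food. The diets overlapped, and the lowest value was the male HPS SD2 sample. The log2 difference was 0.24 ± 0.09 (SE), with an adjusted p of 0.271 by edgeR's quasi-likelihood test. It was 0.09 without male LPS SD2, and the 2 libraries of that RNA differed by more, at 783 CPM in the second and 1053 CPM in the first (log2 −0.43). Next by p came RpS13 (−0.13 ± 0.07), RpS6, whose product is the substrate of S6 kinase in the small subunit (−0.13 ± 0.08), RpS27 (0.10 ± 0.07) and RpL3 (−0.12 ± 0.08). Their adjusted p-values by edgeR's quasi-likelihood test lay between 0.452 and 0.556, so none of these differences passed. With male LPS SD2 left out the RpS27 difference was 0.02 and that of RpS6 −0.21, and RpS13 was at −0.08 without either female HPS SD2 or female LPS SD3. Without female HPS SD2 the RpL3 difference was −0.06, and without male HPS SD2 the RpS27 difference was 0.06.

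The classes of genes lay close together by diet, with no test between them. Large subunit genes had a median of 0.0047 and small subunit genes of −0.0050. X-linked genes had a median of −0.026 and autosomal genes of 0.0055. With library totals in place of TMM scaling, 53 of the 79 genes were higher on LPS and 0 were called by edgeR's quasi-likelihood test. Of the markers of other tissues, 2 of 4 fat body and 2 of 4 muscle markers passed as lower on LPS, while 1 of each list lay above 0. The sums of both lists overlapped between the diets. Fat body markers summed to a median of 1268 CPM on LPS against 1116 CPM on HPS, and muscle markers to 8083 against 9065 CPM. The part of these tissues in the ribosomal protein levels was not tested.

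Within each sex the signs leaned opposite ways, with no gene past the threshold. In females, 9 of 79 genes were higher on LPS and 70 lower, with a median log2 fold change of −0.08 against 0.0041 over all genes. No gene was called, against 0.521% of all genes, 3 had an unadjusted p under 0.05 (RpS6, RpL6 and the stalk gene RpLP2), and DESeq2 called 0. RpS14b, at −0.16 ± 0.08 with an adjusted p of 0.535 by edgeR's quasi-likelihood test, was also among those with the smallest p. RpS6 was at 966, 907 and 849 CPM in LPS females of SD6, SD3 and SD2, against 1051, 1027 and 1053 CPM in HPS females. The groups did not overlap, and the log2 difference was −0.20 ± 0.09 with an adjusted p of 0.442 by edgeR's quasi-likelihood test.

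In males, 68 of 79 genes were higher on LPS, with a median of 0.19 against −0.0042 over all genes. This rests on the SD2 sample alone on the LPS side, and on male HPS SD2, where 29 genes had their lowest value. No gene was called by edgeR, and DESeq2 called RpL41 and RpL36. RpL36 stood at 900 CPM in LPS males of SD2 and at 685, 719 and 658 CPM in HPS males of SD6, SD3 and SD2. Its log2 difference of 0.47 ± 0.12 had an adjusted p of 0.312 by edgeR's quasi-likelihood test. RpL41, RpS23, RpL29 and RpL14 were the others with the smallest p. With all 12 samples as labelled the median was 0.04, with 47 of 78 genes higher, and no gene was called by edgeR's quasi-likelihood test.

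Summed levels by line were lower on LPS in all 3 lines of females and higher on LPS in SD2 males, but not in males of the other lines as labelled. In females, LPS and HPS sums were 55839.5 and 56054.6 CPM in SD6, 50431 and 53100.5 CPM in SD3, and 49028 and 55728 CPM in SD2. In males, SD2 had 52882 CPM on LPS and 45639 CPM on HPS. The library labelled male LPS SD3 held 52418 CPM beside 52593 CPM in male HPS SD3. That labelled male LPS SD6 held 44864 CPM beside 49403 CPM in male HPS SD6. Set beside the line that each matched in expression, the library labelled SD3 (52418 CPM) lay above male HPS SD6 (49403 CPM). The library labelled SD6 (44864 CPM) lay below male HPS SD3 (52593 CPM). The direction in males of SD6 thus depends on which label is right.

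**Figure D3:**
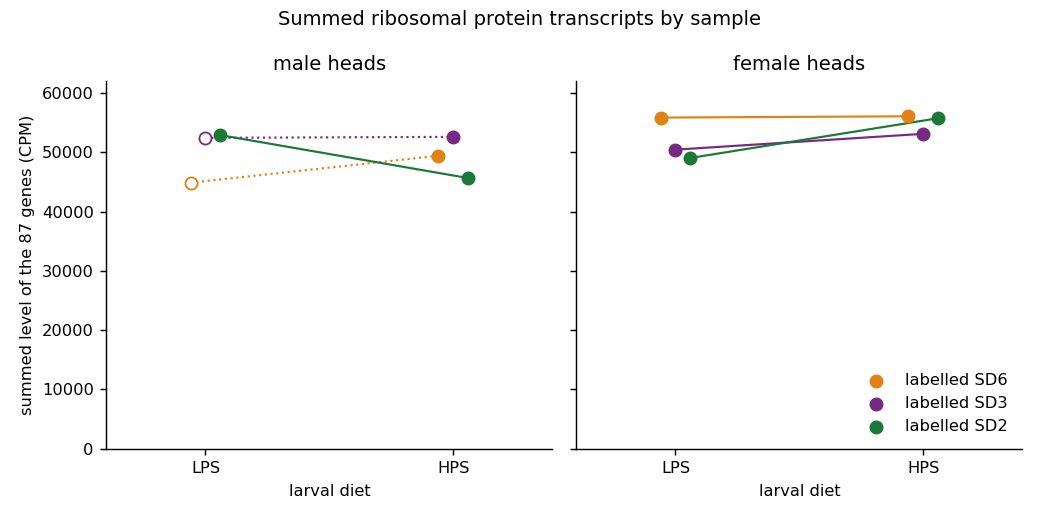
Summed level of the 87 ribosomal protein genes in CPM, in males (left) and females (right), on LPS and HPS larval food, with lines joining samples of the same labelled line and open points with dotted lines for the 2 libraries that go against their labels. Females were lower on LPS in each line, by little in SD6, and SD2 males were higher on LPS (52882 against 45639 CPM).

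The difference of the diet effect between males and females was tested directly. Its median over 79 genes was 0.28, with 74 positive, against −0.012 over all genes. In males this too rests on the SD2 sample alone on LPS food, and on male HPS SD2, which was sequenced in the smaller run only. Since whole samples move together, the signs of the genes are not independent of each other. No gene passed the threshold, by edgeR's quasi-likelihood test or by DESeq2. The smallest p belonged to RpL36, at 0.54 ± 0.14 with an adjusted p of 0.76 by edgeR's quasi-likelihood test, followed by RpS9, RpS23, RpL29 and RpL14. With all 12 samples as labelled the median was 0.12, with 65 of 78 positive.

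Sex moved 3 of 79 tested genes past the threshold (3.80%), fewer than the 7.72% of all genes, and most of the others were a little lower in males. RpL24-like, whose yeast relative acts in assembly of the large subunit, was higher in males, and RpL10 and RpS20 were lower. In all, 13 genes were higher in males and 66 lower, with a median log2 fold change of −0.09 against 0.0041 over all genes. Large and small subunit genes both had a median of −0.09. Without the smaller run, which holds only SD2 males, the median was −0.05, and with library totals it was −0.05, with 21 of 79 genes higher.

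RpL24-like (FBgn0037899, arm 3R) had 126 CPM in SD6, 116 in SD3 and 136 in SD2 HPS males and 162 CPM in the SD2 LPS male, against 90.8 to 120 CPM in females with a median of 105. The sexes overlapped only through female LPS SD6 (120 CPM) and male HPS SD3 (116 CPM). The fitted log2 difference was 0.36 ± 0.08, with an adjusted p of 0.0119 by edgeR's quasi-likelihood test. Its relative RpL24 had 457 to 637 CPM over all samples, and its sex difference of 0.01 did not pass. The 2 libraries with doubtful labels held 123 CPM (labelled SD3) and 101 CPM (labelled SD6), and with all 12 samples as labelled the call was lost (0.28, adjusted p 0.168 by edgeR's quasi-likelihood test).

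RpL10 (FBgn0024733, arm 3L), whose product joins the large subunit late, close to its catalytic site, had 803 CPM in SD6, 665 in SD3 and 618 in SD2 HPS males and 829.4 CPM in the SD2 LPS male. Females held 872 to 989 CPM with a median of 926, above every male. This gave a log2 difference of −0.32 ± 0.08, with an adjusted p of 0.0345 by edgeR's quasi-likelihood test. The 2 libraries labelled male LPS SD3 and SD6, at 863 and 832 CPM, also lay below the females.

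RpS20 (FBgn0019936, arm 3R), a protein of the small subunit head, had 436 CPM in SD6, 400 in SD3 and 361 in SD2 HPS males and 397 CPM in the SD2 LPS male, against 437 to 541 CPM in females with a median of 458. The sexes met without overlapping, at 435.7 CPM in male HPS SD6 and 436.7 CPM in female LPS SD2. The log2 difference was −0.24 ± 0.06, with an adjusted p of 0.0352 by edgeR's quasi-likelihood test. Next by p were RpLP0-like (−0.29 ± 0.09, adjusted p 0.0614 by edgeR's quasi-likelihood test) and the X-linked RpS15Aa (−0.26 ± 0.08, 0.0767).

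The calls by sex depended on single samples. With all 12 samples as labelled 1 gene passed, RpLP0-like, against 3.04% of all genes, and RpL10 and RpS20 did not (adjusted p 0.109 and 0.143 by edgeR's quasi-likelihood test). RpL10 lost its call without any 1 of the 3 male HPS samples, the 3 female HPS samples or female LPS SD3 (adjusted p 0.054 to 0.226). RpS20 lost it without male HPS SD2 or SD6, any 1 of the 3 female HPS samples, or female LPS SD3 or SD6 (0.0513 to 0.226), and RpL24-like without female HPS SD2 or male LPS SD2 (0.0536 and 0.0968).

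Markers of other tissues moved with sex as well. Muscle markers summed to 5625 to 7905 CPM in males and 7171 to 10507 CPM in females, and by the same test 3 of the 4 were lower in males and 1 was higher. Fat body markers summed to 893 to 1064 CPM in males and 1169 to 1559 CPM in females, with 2 of 4 lower in males. Haemocyte markers summed to 44.0 to 58.8 CPM in males and 64.7 to 85.5 CPM in females, with 2 of 3 tested lower. Glial markers, at 1004 to 1459 CPM in males and 1065 to 1432 CPM in females, had 2 of 4 higher. Their part in the ribosomal protein levels was not tested.

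X-linked ribosomal protein genes, which males carry in a single dose and the dosage compensation complex raises, were set beside the autosomal ones, with no test between the classes. Of 13 tested, 4 were higher in males and 9 lower, with a median of −0.04 and 0 calls by edgeR's quasi-likelihood test (3 with an unadjusted p under 0.05, all lower in males). DESeq2 called 1 of them, RpS15Aa, lower in males. Among 66 autosomal genes, 9 were higher and 57 lower, with a median of −0.09 and 3 calls. Over all genes the medians were 0.01 for 1690 X-linked and 0.0033 for 8533 autosomal genes. The X-linked share of the summed level was 15.5% in SD6, 15.8% in SD3 and 16.2% in SD2 HPS males and 15.7% in the SD2 LPS male, against 15.1% to 15.4% in females. Males lay above females in these 10 samples, but the libraries labelled male LPS SD3 and SD6, both at 15.3%, lay within the female range.

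**Figure D4:**
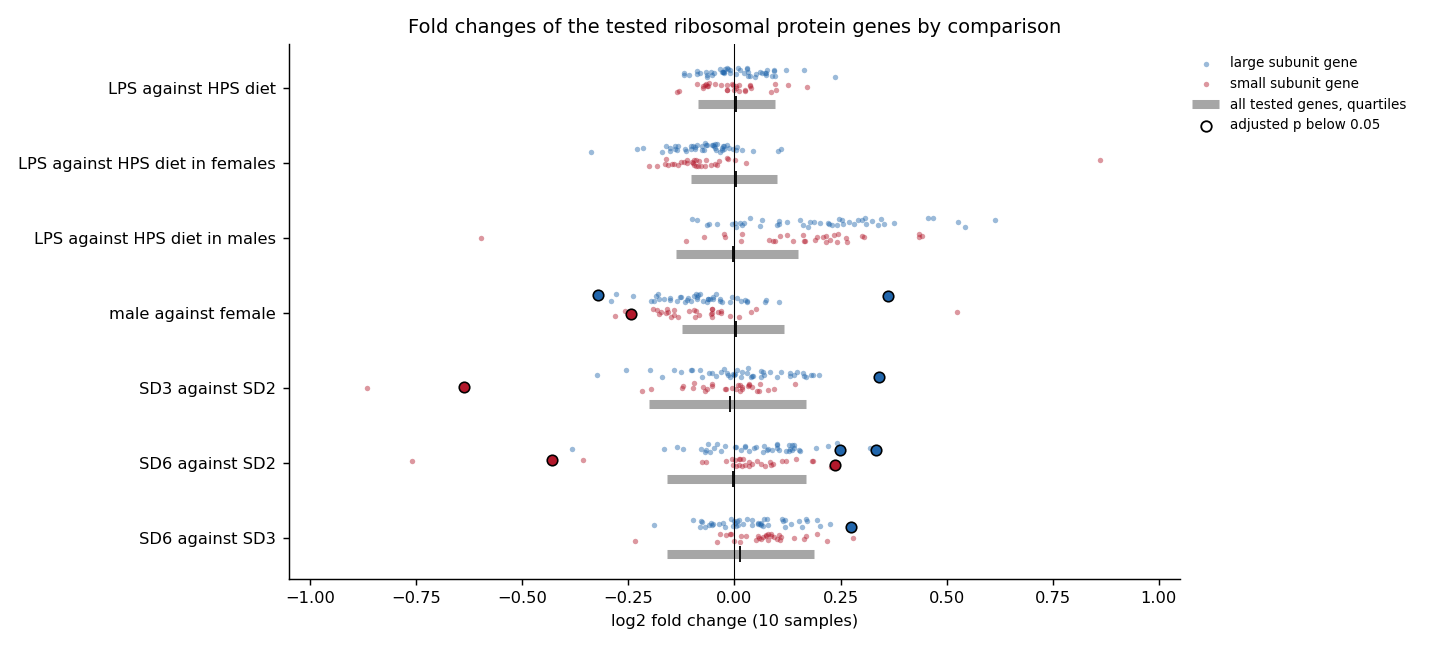
Log2 fold changes of the 79 tested ribosomal protein genes in 7 comparisons from the 10-sample fits, with blue points for large and red for small subunit genes, ringed where the adjusted p by edgeR's quasi-likelihood test is below 0.05, and grey bars with a tick for the quartiles and median of all tested genes. Most points lie to the left of 0 for male against female (median −0.09), and the outermost red points are RpS5b, which has few reads.

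Line moved fewer of the ribosomal protein genes past the threshold than of all genes. For SD3 against SD2, 2 of 79 were called (2.53%), against 23.2% of all genes. For SD6 against SD2, 4 were called (5.06%), against 22.4%, and for SD6 against SD3, 1 (1.27%), against 20.2%. The median log2 fold changes were 0.0085, 0.05 and 0.06 in the same order, and −0.011, −0.0025 and 0.012 over all genes, and the first was −0.05 with library totals. The 3 contrasts share samples of the lines, so their values are not independent of each other. With all 12 samples as labelled, where 2 libraries carry doubtful line labels, the counts were 0 (9.81% of all genes), 2 (10.0%) and 0 (0% of all genes), with 5, 4 and 0 genes at an unadjusted p under 0.05.

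RpL36A (FBgn0031980, arm 2L), a large subunit protein near the exit site for transfer RNA, differed between SD6 and SD2. It had 435 and 490 CPM in SD6 males on HPS and females on LPS and 485 CPM in SD6 females on HPS. In SD2 it had 323 and 356 CPM in males and 411 and 366 CPM in females, with all SD6 samples above all SD2 samples. The fitted log2 difference was 0.33 ± 0.07, with an adjusted p of 0.0054 by edgeR's quasi-likelihood test, and it passed in each of 18 alternative fits. SD3 held 382, 427 and 444 CPM and overlapped both lines. It differed from neither line past the threshold (adjusted p 0.134 against SD2 and 0.139 for SD6 against SD3 by edgeR's quasi-likelihood test).

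RpL40 (FBgn0003941, arm 2L), the ubiquitin fusion of the large subunit, had 727, 774 and 776 CPM in SD6, against 619, 626 and 636 CPM in SD3 and 571, 642, 664 and 665 CPM in SD2. SD6 stood above both other lines in every sample, while SD3 and SD2 overlapped. This gave a log2 difference of 0.25 ± 0.08 against SD2 and 0.27 ± 0.08 against SD3, with adjusted p-values of 0.0325 and 0.0279 by edgeR's quasi-likelihood test. With labels as given for all 12 samples both were lost (adjusted p 0.369 and 0.886 by edgeR's quasi-likelihood test), and with the labels of the 2 libraries exchanged both passed (0.00985 and 0.00421). RpL40 was picked above to show the mismatch of these labels, so the exchanged fit is no separate evidence for its line difference.

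RpS20 had 436, 537 and 541 CPM in SD6 and 361, 397, 437 and 468 CPM in SD2, with overlap between the lines. The log2 difference was 0.24 ± 0.07, with an adjusted p of 0.034 by edgeR's quasi-likelihood test. It did not pass in SD6 against SD3 (0.22 ± 0.08, adjusted p 0.0608). RpS9 (FBgn0010408, arm 3L), a small subunit protein that helps keep decoding accurate, ran the other way. It had 438, 521 and 530 CPM in SD6 and 505, 733, 619 and 763 CPM in SD2, where the lowest, male HPS SD2, overlapped SD6. The fitted log2 difference was −0.43 ± 0.12, with an adjusted p of 0.021 by edgeR's quasi-likelihood test. SD3 had 530 to 642 CPM of RpS9.

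RpS15Ab (FBgn0033555, arm 2R), the low second copy of a small subunit protein, was lower in SD3 than in SD2. It had 9.0, 14.0 and 16.1 CPM in SD3 against 13.5, 21.1, 22.2 and 22.5 CPM in SD2. The lines overlapped through male HPS SD2, at 13.5 CPM. This gave a log2 difference of −0.64 ± 0.17, with an adjusted p of 0.0142 by edgeR's quasi-likelihood test. The main copy RpS15Aa had 411, 504 and 563 CPM in SD3 against 420, 507, 520 and 591 CPM in SD2, and its log2 difference of −0.10 did not pass.

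RpL22 (FBgn0015288, X) was higher in SD3, at 218, 222 and 244 CPM, than in SD2, at 141, 156, 203 and 211 CPM, with no overlap in the 10 samples. The 2 libraries with doubtful labels held 182 CPM (labelled SD3) and 131 CPM (labelled SD6). Both lay below the SD2 females, so with either of them as SD3 the lines overlap. The log2 difference was 0.34 ± 0.11, with an adjusted p of 0.0403 by edgeR's quasi-likelihood test. SD6 had 199, 233 and 249 CPM, and its difference of 0.32 from SD2 gave an adjusted p of 0.0535. The 2 libraries of the male LPS SD2 RNA differed more than the lines did, at 123 CPM in the second and 183 CPM in the first (log2 −0.58), and the other library of the smaller run, male HPS SD2, was the lowest of the 10 samples. Without the smaller run the difference was 0.20 and did not pass (adjusted p 0.16 by edgeR's quasi-likelihood test).

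Further genes close to the threshold were RpL24-like, RpS14b and RpL36A in SD3 against SD2 (log2 −0.26, −0.22 and 0.16) and RpS20, RpL32, RpL24-like and RpL36A in SD6 against SD3 (0.22, 0.20, 0.22 and 0.17). None passed in the 10 samples.

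The line calls other than RpL36A each ended when single samples were left out. RpL40 against SD2 lost its call without male HPS SD2 or SD6, female HPS SD2 or SD6, or any 1 of the female LPS samples (adjusted p 0.0525 to 0.102 by edgeR's quasi-likelihood test), and RpS20 without the same samples (0.0558 to 0.138). RpL40 against SD3 lost it without male HPS SD6, female HPS SD3 or SD6, or female LPS SD3 or SD6 (0.0587 to 0.154), and RpS9 without male HPS SD6, female HPS SD2 or female LPS SD6 (0.0781 to 0.182). RpS15Ab lost it without male HPS SD3 or female HPS SD2 (0.0807 and 0.0906), and RpL22 without male HPS SD2 or SD3, female HPS SD2 or SD6, or male LPS SD2 (0.0561 to 0.359). Without male HPS SD3 the RpL22 difference was 0.13.

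**Figure D5:**
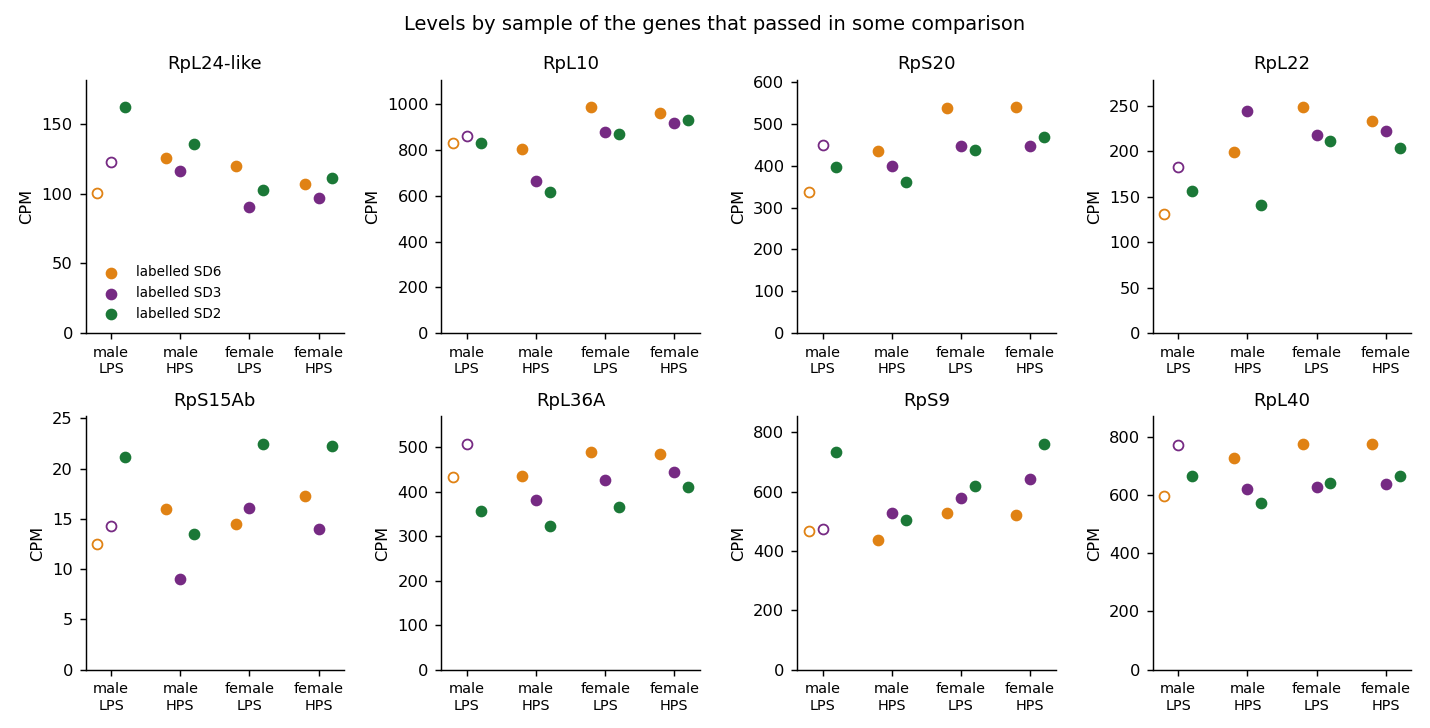
CPM by sample of the 8 ribosomal protein genes that passed in some comparison, with males left of females and LPS left of HPS, coloured by labelled line (orange SD6, purple SD3, green SD2), and open points for the 2 libraries that go against their labels. RpL10 lies lower in males than in females, RpL40 is highest in SD6 among the filled points, and in male LPS the open RpL40 points stand in the reverse order of their labels.

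Marker levels also differed between lines. All 4 glial markers were lower in SD6 than in SD3 and summed to 1004 to 1071 CPM against 1302 to 1459 CPM, and 3 of 4 muscle markers were lower. Against SD2, 2 of 4 photoreceptor markers were higher both in SD6 and in SD3. Of 4 fat body markers, 1 was higher and 2 were lower in SD6 than in SD3 (median log2 −1.08), 1 was higher and 1 lower in SD6 than in SD2 (0.28), and 2 were higher and 1 lower in SD3 than in SD2 (0.56). Their part in the line differences above was not tested.

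Other genes of translation were examined as a list of 37 factors and ribosome partners, of which 35 had a count row. By diet 0 of 35 were called by edgeR's quasi-likelihood test, against 1.42% of all genes (4 with an unadjusted p under 0.05, all lower), and 7 were above and 28 below 0, with a median of −0.05. By sex 2 were called, against 7.72% of all genes, and both were lower in males, eEF1delta (−0.51 ± 0.09) and eEF1beta (−0.27 ± 0.07), both subunits of the factor that recharges the elongation factor eEF1A. The median over the list was −0.07, near the −0.09 of the ribosomal protein genes.

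By line 1 was called for SD3 against SD2, 1 for SD6 against SD2 and 4 for SD6 against SD3, against 23.2%, 22.4% and 20.2% of all genes. The elongation factor gene eEF1beta was higher in SD6 than in SD2 (0.56 ± 0.08) and than in SD3 (0.38 ± 0.09). The initiation factor subunits eIF3e, eIF3h and eIF3m were also higher in SD6 than in SD3 (0.28, 0.22 and 0.35), and eIF3e was lower in SD3 than in SD2 (−0.25 ± 0.06). The small subunit protein sta, which the symbol rule does not take in, and the 40S-bound scaffold Rack1 passed in none of these, at 881 ± 119 and 1142 ± 152 CPM over 12 samples. With all 12 samples as labelled 1 of 35 was called by sex (3.04% of all genes) and 0 in each line contrast (9.81%, 10.0% and 0% of all genes in the same order).

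A second list held 17 genes known to control ribosomal protein genes, their translation or the response to their loss, of which 16 had a count row. By diet 0 were called by edgeR's quasi-likelihood test, against 1.42% of all genes (1 with an unadjusted p under 0.05, Thor, lower on LPS), with a median of −0.016. By sex 2 were called, against 7.72% of all genes, with the kinase gene S6kII higher in males (0.32 ± 0.07) and the promoter factor gene Trf2 lower (−0.27 ± 0.07). By line 2 were called for SD3 against SD2 (23.2% of all genes), 5 for SD6 against SD2 (22.4%) and 3 for SD6 against SD3 (20.2%). The gene larp, whose product binds pyrimidine-starting messengers, was lower in SD3 (−0.69 ± 0.08) and in SD6 (−0.61 ± 0.08) than in SD2. Xrp1, which acts in flies that lack ribosomal protein gene copies, was higher in SD6 than in SD2 (0.52 ± 0.07) and than in SD3 (0.35 ± 0.07). S6k was lower in SD3 than in SD2. Against SD2, SD6 was also higher for Rheb and lower for Trf2 and Myc, and against SD3 it was lower for crol and foxo. With all 12 samples as labelled 1 of 16 was called by sex (3.04% of all genes), 1 for SD3 against SD2 (9.81%), 2 for SD6 against SD2 (10.0%) and 0 for SD6 against SD3 (0%).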

How the data were processed

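The authors deposited whole-number counts of reads per gene, not normalized, for 13 libraries of 75-base single-end reads from 100 ng of total RNA, per the labels' protocols. Per the submitters' processing notes, TopHat2 2.1.0 and HTSeq 0.6.1p1 were among the tools, with CASAVA 1.8.2 and bcl2fastq 1.8. By the names of the deposited files these are unique reads on the reverse strand, so near-identical genes lose shared reads. The genome build used for counting is not given in the sources. Symbols, chromosome arms and transcript lengths came from Ensembl's BDGP6.54 annotation, where 17155 of 17370 identifiers had a symbol. The 96 spike-in and 5 summary entries were left out. Reads assigned to no gene were 2.93% to 4.96% in the main run and 10.4% to 14.9% in the smaller.

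Tests used edgeR 4.0.16 in R 4.3.3, with TMM scaling, filterByExpr over diet and sex groups (minimum count 10), the quasi-likelihood test and Benjamini-Hochberg adjustment over all tested genes at 0.05. Diet, sex and line were fitted together in 10 samples, or line with the 4 diet and sex groups for effects within a sex. The line is the replicate number and pairs the samples, so it stayed as the block. Same-number correlations were 0.621 to 0.807 in the 12 pairs without the 2 doubtful libraries and −0.375 to −0.261 in the 6 pairs with 1. The 12 pairs are those left once these libraries were set aside, so their range follows in part from that choice. The model with diet, sex and line was tested on simulated data for diet, sex and SD3 against SD2. Each simulation changed genes in that comparison alone. It gave every gene the same dispersion and no shift shared by whole samples, so it does not cover the shared movement described above. The model with the 4 diet and sex groups was not simulated. DESeq2 1.42.0 and other scalings, filters and sample sets were alternatives. CPM uses TMM-scaled totals. Each pool is 1 replicate, and p-values measure only the spread between pools. Genes and lists were chosen with earlier results of these data known. Named genes are those called, the 5 with the smallest p where fewer passed, second copies, and the 5 highest and lowest per kb. RpL38, sta and Rack1 were named after their values were seen. Promoter motifs were not examined. A gene that the naming rule takes in is not reported here.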

Additional observations from a re-analysis of the deposited data

Results flagged for a closer look

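Within groups of 4 to 10 samples, 6 of 95 tested sets of CPM values of named genes held a sample far from the rest by Dixon's test, and chance alone marks about 1 set in 20. Of these, 3 concern the male HPS SD2 sample among the SD2 samples. There RpL41 stood at 583 CPM (the others 899 to 938), RpS27 at 299 CPM (374 to 385) and RpS15Ab at 13.5 CPM (21.1 to 22.5). That sample belongs to the smaller sequencing run. In the male LPS SD2 RNA, which was sequenced in both runs, these genes were also lower in the smaller run, by log2 differences of −0.43 for RpL41, −0.37 for RpS27 and −0.22 for RpS15Ab. So were most of the ribosomal protein genes, 62 of 78, and the part of the run in the male HPS SD2 values was not tested. RpS13 stood at 756 CPM in female HPS SD2, against 631 to 645 CPM in the other SD2 samples. RpL10 stood at 989 CPM in female LPS SD6, against 829.4 to 878.2 CPM in the other LPS samples. RpS9 stood at 733 CPM in male LPS SD2, against 438 to 530 CPM in the other males.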

How the results depend on the processing

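No call reversed its direction in the alternatives run, and the count by diet was 0 in all 19. The median over the genes kept its sign by sex (−0.162 to −0.036) and for SD6 against SD2 (0.0027 to 0.118), and changed it by diet (−0.091 to 0.052), for SD3 against SD2 (−0.059 to 0.083) and for SD6 against SD3 (−0.024 to 0.102). By sex, the count of 3 genes became 1 with all 12 samples as labelled, 7 with the labels of the 2 doubtful libraries exchanged, 1 with library totals alone, 5 with DESeq2 and 1 without the smaller run. Fitted without the replicate block it became 0. For SD3 against SD2, the count of 2 became 0 as labelled and 4 exchanged. For SD6 against SD2, the count of 4 became 2 as labelled, 7 exchanged and 2 with library totals. For SD6 against SD3, the count of 1 became 0 as labelled, 4 exchanged, 2 with library totals and 2 with DESeq2. DESeq2 called 2 genes for diet in males, where edgeR called 0. The cause was not tested, beyond the change of samples or labels itself. Leaving out 1 sample at a time gave counts of 0 to 5 by sex, 0 to 4 for SD3 against SD2, 1 to 6 for SD6 against SD2 and 0 to 2 for SD6 against SD3. The block changed no other call. Depth limits the near-silent second copies, where 3 reads are 0.109 to 0.382 CPM.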

Other observations

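In the library labelled male LPS SD6, where the summed ribosomal protein level was lowest, some genes went against the rest. The 5 highest after the common shift of −0.23 was taken out were RpL38, at 0.84 log2 units above its mean, RpL15 at 0.50, RpL5 at 0.39, RpS3A at 0.33 and RpS28b at 0.32. These genes were chosen after their values were seen. RpL15 was at 985 CPM there, against 746 to 887 CPM in the other samples.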
